A study of Mus musculus with 2 samples.

Results

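Cytosolic ribosomal protein genes encode the protein part of the ribosome outside mitochondria, named Rps for the small (40S) subunit and Rpl for the large (60S) subunit. Members were chosen by symbol: 101 symbols matched the Rps and Rpl pattern, 85 were left once kinases, a binding protein and names marked as pseudogenes were removed, and 82 of these, out of 32285 listed genes, reached 50 CPM (counts of the gene per 1000000 counts of the cell group) in at least 1 gated cell group. They comprised 32 genes of the small and 50 of the large subunit. The 3 genes under that filter were Rps27rt, with at most 33.5 CPM, Rpl3l, with at most 0.414 CPM, and Rpl10l, with no count in any of the 4 gates, where 3 counts would allow at most 1.89 CPM in the smallest gate.

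The data came from subcutaneous tumours of mice fed a diet without serine and glycine or a control diet. The sample titles give only SG and CT, which were read as the -SG and control diets that the series' design names, and every diet direction below rests on that reading. Each diet had 1 sample. From each, 10x Genomics single-cell RNA sequencing and sequencing of T cell receptor (TCR) transcripts were deposited. The labels used here do not state the strain, age, number of pooled mice or implanted tumour line. The 2 libraries held 7999 barcodes with 157234945 unique molecular identifiers (UMIs, each 1 captured RNA molecule) under the serine/glycine-free diet and 8466 barcodes with 161332426 UMIs under the control diet, and 104 barcode sequences occurred in both. With 1 library per diet, no test of the diet was possible. Every interval below is a 95% interval that covers counting error only, and mice and libraries cannot be told apart from diet.

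Ribosomal proteins are needed in nearly equal numbers, and their messenger RNAs are among the most abundant in a cell. They share features of transcription and translation that let nutrient-sensing pathways such as mTOR adjust them together. Several have a second gene copy, a paralogue, whose protein can take the place of the main form in some tissues, Rpl39l in developing sperm being an example. For a member, a cell type difference can therefore mean a different level of the whole group or a different choice between paralogues.

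Cells were gated by marker counts and UMIs were summed per gate and library. The T gate held barcodes with a TCR beta (TRB) contig, 243 under the serine/glycine-free and 242 under the control diet. The macrophage gate required C1qa, C1qb and C1qc together at 0.1% of UMIs or more and no Krt20, and held 632 and 694 cells. Barcodes with Krt20 and no Ptprc, the rule's tumour cells, were split into Mki67 1 or more (1825 and 2045 cells) and Mki67 0 (2788 and 2076 cells). Mki67 marks dividing cells, and Ptprc encodes the leukocyte antigen CD45. No Ptprc was counted in 156 and 161 of the macrophage barcodes and in 27 and 72 of the T barcodes.

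The labels of the gates were compared with defining markers. Cd3e, a subunit of the TCR complex, had 889 and 576 CPM in the T gates of the serine/glycine-free and control libraries and at most 2.41 CPM in the other gates. Apoe, abundant in macrophages, had 5032 and 3689 CPM in the macrophage gates. Its level in the other gates and the other listed macrophage markers are not given here. In the Krt20+ gates the epithelial markers Krt8, Epcam, Cdh1, Krt19 and Lgals4 were each at 1.14 CPM or less. Krt7 and Krt18, also on the list of tumour markers, are not given here. The barcodes of these gates are called Krt20+ Ptprc- cells below and not epithelial tumour cells. Of the T barcodes, 29 under the serine/glycine-free diet and 17 under the control diet also carried Krt20, and these few barcodes supplied 43.4% and 31.9% of the T gate's UMIs. The T comparisons are therefore also given for a strict T gate, added after the data were seen, of barcodes with Ptprc, a Cd3 gene, no Krt20 and C1q below the macrophage threshold. It held 192 and 156 barcodes, with a median of 5514 and 3051.5 UMIs. Median UMIs were 10472 and 9585 in macrophages, 30214 and 30251 in Krt20+ cells with Mki67, and 19731.5 and 21345.5 in those without.

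Of the 9 paralogue pairs listed, 5 had both genes above the filter. Of these, 3 are shown as examples chosen after their values were seen. The DNA around their transcription starts is given from 60 bases before to 20 bases after (RefSeq, GRCm38.p6, the patch release of mm10). Capitals mark TTCCGG or its reverse complement CCGGAA, the core bound by ETS family transcription factors.
Rpl39l, chr16:10170168-10170247, plus strand: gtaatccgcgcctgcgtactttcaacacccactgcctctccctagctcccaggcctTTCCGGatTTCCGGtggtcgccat
Rpl39, chrX:37085203-37085282, minus strand: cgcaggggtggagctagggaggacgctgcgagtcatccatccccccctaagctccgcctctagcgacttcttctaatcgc
Rps27l, 1 of 2 RefSeq starts, chr9:66946026-66946105, plus strand: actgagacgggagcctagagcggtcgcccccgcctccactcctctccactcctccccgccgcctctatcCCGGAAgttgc
Rps27, chr3:90213629-90213708, minus strand: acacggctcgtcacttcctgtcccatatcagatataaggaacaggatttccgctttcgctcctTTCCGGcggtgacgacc
Rpl22l1, chr3:28805448-28805527, plus strand: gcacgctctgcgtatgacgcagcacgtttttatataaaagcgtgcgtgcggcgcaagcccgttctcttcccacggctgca
Rpl22, 1 of 2 RefSeq starts, chr4:152325666-152325745, plus strand: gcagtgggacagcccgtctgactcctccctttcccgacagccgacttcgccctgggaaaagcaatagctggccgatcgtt

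In the full window of 300 bases, 250 before and 50 after the start, TTCCGG or CCGGAA occurred in 35 of the 62 members with a RefSeq window (56.5%), against 16.7% of 27025 genes with a window. A run of 8 or more C or T on the transcribed strand within 25 bases of the start occurred in 33 of the 62 members (53.2%), against 22.3% of all genes with a window. Rpl39l had the ETS core 4 times in its window and Rpl39 once, outside the stretch shown. Rpl22l1 and Rpl22 had it in none of the windows, which says only that these letters are not there.

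Macrophages devoted a smaller share of their RNA to ribosomal proteins than the T and Krt20+ gates. The 82 members took 15.0% of UMIs in macrophages under both diets. Their share was 25.5% and 24.6% in the T gates of the serine/glycine-free and control libraries, and 24.2% and 23.2% in the strict T gates. Krt20+ cells gave 25.8% and 25.01% with Mki67 and 27.2% and 26.9% without Mki67. Counting intervals spanned 0.2 percentage points or less in each case. The spread over cells, given next, describes the cells within a library and is not an error of the summed share. The spread between mice or libraries could not be measured, and cells are not replicates. Cells varied with an SD of 4.08 and 4.19 percentage points in macrophages, and of 5.67 and 4.88 in Krt20+ cells without Mki67, around medians of 14.7%, 14.9%, 26.7% and 26.5% in that order. The ranges between the quartiles of macrophages, 12.4% to 17.0% and 12.2% to 17.3%, did not overlap those of the Krt20+ cells, 23.4% to 29.5% and 23.9% to 29.2%. After every cell was thinned to 1000 UMIs, the medians were 14.7% and 14.9% in macrophages against 26.6% and 26.6% in Krt20+ cells without Mki67.

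**Figure D1:**
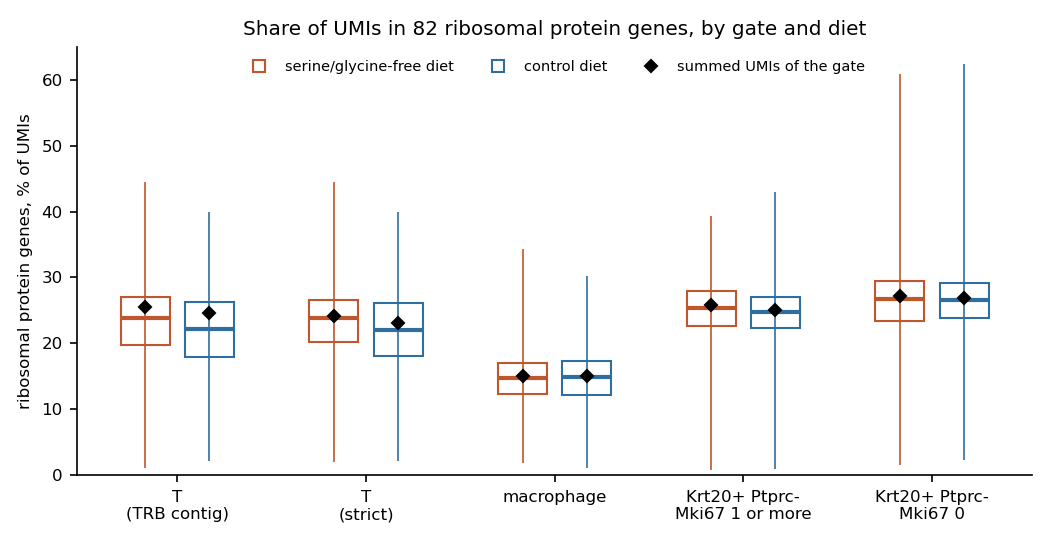
Share of UMIs in the 82 ribosomal protein genes (y axis, percent) by gate and diet. Boxes run between the quartiles of the cells with the median as a thick line, thin lines the lowest to the highest cell, and diamonds the summed UMIs; the macrophage boxes, with medians of 14.7% and 14.9%, lie below those of the T, strict T and Krt20+ gates drawn here.

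Against Krt20+ cells without Mki67, most members were lower in macrophages. A member was called where its ratio on the log2(CPM + 5) scale passed 1.5-fold in both libraries, which is a rule of size and not a test. Of the 82 members, 58 were called lower (22.2% of 4218 genes tested were) and 0 were called higher (28.1% of genes tested were). The called members were 20 of 32 in the small and 38 of 50 in the large subunit. The median log2 ratio over members was -0.84 in the serine/glycine-free and -0.83 in the control library, against 0.04 in both over all genes tested. This comparison uses CPM, which are relative to all RNA of the gate, so a lower ribosomal share leaves a larger share for other genes. Dividing by all RNA takes out the number of cells, but a cell's ribosomal share can still vary with its UMIs. Spearman correlations between that share and UMIs per cell were 0.43 and 0.14 in Krt20+ cells without Mki67. In macrophages they were 0.05 and 0.11. The part of these relations in the gate difference was not tested.

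The stalk proteins Rplp0, Rplp1 and Rplp2, which form the flexible arm that recruits elongation factors, were among the members with lower values. Rplp0 had 3032 and 3154 CPM in macrophages of the serine/glycine-free and control libraries, against 8866 and 7557 CPM in Krt20+ cells without Mki67. Its ratio, 0.342 (0.337 to 0.347) and 0.417 (0.412 to 0.423), was the lowest after Rpl39l by the mean of both libraries, but not in the control library alone. Rplp1 and Rplp2 had ratios of 0.525 and 0.578 in the serine/glycine-free library and 0.474 and 0.562 in the control library. In all 6 values the macrophages were the lower group.

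Rpl7, a large subunit protein, and Rps3a1, of the small subunit, completed the low end with Rpl22l1. Rpl7 had 928 and 962 CPM in macrophages against 2400 and 2435 CPM in Krt20+ cells without Mki67. Rps3a1 had 2374 and 2461 CPM against 6089 and 6118 CPM. Rpsa, the small subunit protein also known as the laminin receptor, had 2654 and 3019 CPM in macrophages and 5587 and 6353 CPM in Krt20+ cells, a ratio of 0.475 in each library. Rps6, the target of S6 kinases, had ratios of 0.550 and 0.563. Rps19, which is mutated in human Diamond-Blackfan anaemia, had ratios of 0.512 and 0.516. Rpl5, which joins Rpl11 and 5S rRNA in a particle able to bind the p53 regulator Mdm2, had ratios of 0.511 and 0.510, while its partner Rpl11 reached 0.835 and 0.821 and was not called.

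A few members kept nearly the same CPM in macrophages as in Krt20+ cells. Rps14, of the small subunit, had 2030 and 2137 CPM in macrophages against 1957 and 1964 CPM in Krt20+ cells without Mki67. Rps29, a small zinc-binding protein, had 2085 and 1819 CPM against 1969 and 1986 CPM. Rps27a, made as a fusion with ubiquitin, had 2803 and 2928 CPM against 3081 and 3009 CPM. Rpl7l1, a paralogue of Rpl7 with a part in assembling the large subunit, was higher, with 73.6 and 95.6 CPM in macrophages and 58.0 and 69.2 CPM in Krt20+ cells. None of these 4 reached 1.5-fold on the CPM scale.

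When each member was expressed as a part of the gate's own ribosomal protein UMIs, the general difference dropped out by construction. The same rescaling moved the genes outside the list. Over all genes tested the median log2 ratio became 0.81 and 0.80, against 0.04 in both libraries on the CPM scale. Shares over all genes on the composition scale are given for completeness and are no background for the members. On this composition scale, 5 members were called higher in macrophages than in Krt20+ cells without Mki67 (56.5% of all genes tested were) and 1 was called lower (9.01% of all genes tested were). The 5 were Rpl7l1, Rps14, Rps29, Rps27a and Rpl36al, with log2 ratios of 1.13, 0.91, 0.94, 0.72 and 0.71 in the serine/glycine-free library and 1.24, 0.96, 0.71, 0.80 and 0.59 in the control library. The member called lower was Rpl39l, at -2.83 and -3.02. The other 76 were not called in either direction.

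**Figure D2:**
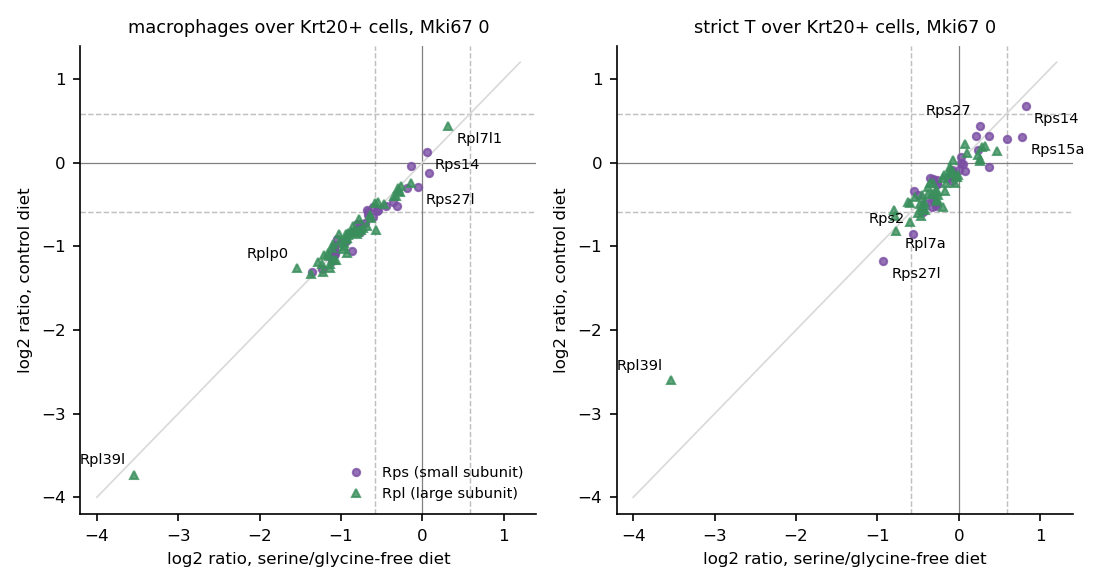
Log2 ratios of CPM for the 82 members, with the serine/glycine-free library on the x axis and the control library on the y axis; circles are Rps and triangles Rpl genes, and dashed lines mark 1.5-fold. In the macrophage panel most points lie low in both libraries around -0.84 and -0.83, with Rpl39l apart at -3.54 and -3.73; in the strict T panel most lie near 0 and Rpl39l and Rps27l stand lowest.

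T cells resembled Krt20+ cells more than macrophages in their ribosomal protein level. By the rule's T gate, 50 members were called higher than in macrophages (23.1% of genes tested) and 0 lower (18.4%). In the strict gate the counts were 35 higher (17.6%) and 1 lower (19.8%), and the median log2 ratios were 0.66 and 0.58. The highest were Rpsa, Rps15a, Rps27, Rplp0 and Rps7. Rpsa had 7217 and 6117 CPM in strict T barcodes of the serine/glycine-free and control libraries, against 2654 and 3019 CPM in macrophages. Rps15a, of the small subunit, had 6500 and 4805 CPM against 2495 and 2465 CPM. Rpl13a, which can leave the ribosome to act as a translational repressor in interferon-treated human monocytic cells, had ratios of 2.02 and 1.80.

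Against Krt20+ cells without Mki67, the T gate had 0 members called higher (20% of genes tested) and 1 called lower, Rpl39l (11.1%). The strict T gate had 1 called higher, Rps14 (24.3%), and 5 called lower, Rpl39l, Rps27l, Rpl7a, Rpl10 and Rpl9 (20.5%); Rpl9 was named after its values were seen. Rps14 had 3455 and 3138 CPM in strict T barcodes against 1957 and 1964 CPM in Krt20+ cells. Rps15a and Rps13 were next, with ratios of 1.71 and 1.51 in the serine/glycine-free and 1.24 and 1.22 in the control library. Rpl10, which joins the large subunit late near its catalytic centre, had 869 and 923 CPM in strict T barcodes against 1498 and 1443 CPM. Rpl7a had 1553 and 1532 CPM against 2648 and 2710 CPM. On the composition scale the strict T gate had 1 member called higher than Krt20+ cells, Rps14 (29.3% of genes tested), and 3 called lower, Rpl39l, Rps27l and Rpl7a (16.6%). By the rule's T gate these counts were 0 (22.2%) and 1 (8.63%). Against macrophages on that scale the strict gate had 0 higher (7.35%) and 4 lower (39.9%). The rule's gate had 1 higher (10.2%) and 3 lower (42.2%). Here too the shares over all genes carry the rescaling and are no background for the members.

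The Krt20-carrying T barcodes, summed alone and set against the strict T gate, had 3 members called higher (18.3% of genes tested), Rpl39l, Rps27l and Rpl7a, and 1 called lower (18.8%), Rps14. They had Rpl39l at 16.4 and 5.36 times, Rps27l at 2.01 and 2.08 times and Rps14 at 0.658 and 0.617 times the strict gate's CPM.

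Krt20+ cells with and without Mki67 differed little. None of the 82 members was called in either direction, where 5.5% of genes tested were called higher and 1.16% lower in cells with Mki67. On the composition scale the counts were again 0 and 0 (6.69% and 0.711% of genes tested). Small differences of the members mostly ran one way, with 68 of 82 lower in cells with Mki67 in both libraries and 2 higher. Over all 4218 genes tested, 1778 were lower and 1779 higher in both. The members had medians of -0.07 and -0.10 on the log2 scale, against 0.01 and -0.01 over all genes tested. The largest excess was that of Rpl39l, with 291 and 357 CPM in cells with Mki67 against 228 and 311 CPM in cells without. Rpl7l1 was the other member higher in both, with ratios of 1.14 and 1.10. Rps27 stood lowest, with 1470 and 1398 CPM against 1842 and 1666 CPM. Cells with Mki67 also had more UMIs, a median of 30214 and 30251 against 19731.5 and 21345.5, and the part of depth in these differences was not tested.

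Paralogues were compared as the first gene's share of the UMIs of both, a share that is not corrected for transcript length or for reads the 2 copies have in common, and that is read only across gates. Rpl39l, a paralogue of the exit tunnel protein Rpl39, had far higher levels in Krt20+ cells than in macrophages or strict T barcodes. It supplied 7.37% (7.26 to 7.48) and 10.4% (10.2 to 10.5) of the pair in Krt20+ cells with Mki67, and 5.23% (5.14 to 5.32) and 8.17% (8.04 to 8.30) in those without. In macrophages it supplied 0.693% (0.567 to 0.837) and 0.966% (0.811 to 1.14). The strict T share was 0.413% (0.253 to 0.638) and 1.51% (1.05 to 2.09), against 3.05% and 4.43% by the rule's T gate. Per cell at 1000 UMIs, Rpl39l was seen in 24.9% and 29.0% of Krt20+ cells with Mki67 and in 19.5% and 25.5% of those without. In macrophages it was seen in 4 of 614 and 13 of 669 cells, and in strict T barcodes in 1 of 190 and 0 of 150, the last of which allows a share of barcodes with a UMI at this depth of up to 2% by 3 counts, or 2.43% by the exact interval, and is no limit on deeper counts. Unthinned, the shares were 98.1% and 99.0%, 91.0% and 96.6%, 8.70% and 9.80%, and 4.17% and 3.21% in the same order of gates.

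The Rpl39l counts of the T gates sat in a small number of barcodes. In the strict T gate, 20 UMIs came from 8 of 192 barcodes under the serine/glycine-free diet and 35 UMIs from 5 of 156 under the control diet, and the carriers had a median of 14834.5 and 31203 UMIs, far above the gate's. In the rule's T gate, 267 of 287 and 128 of 237 UMIs came from barcodes with Krt20. The level was also set beside 21 other genes, chosen after the data were seen for at least 200 CPM in Krt20+ cells and at most 10% of that level in macrophages. In the T gate these genes had a median of 39.3% and 47.6% of their Krt20+ level, against 50.5% and 48.2% for Rpl39l. In the strict gate their median was 6.07% and 18.2%, against 6.59% and 15.2% for Rpl39l. In macrophages 106 and 136 UMIs were spread over 55 of 632 and 68 of 694 cells. There, where the choice of the 21 genes itself sets the limit, the median was 5.86% and 6.27%, against 6.6% and 6.05% for Rpl39l. These values describe the libraries and support nothing further, and the part of free RNA or doublets in the counts was not tested.

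**Figure D3:**
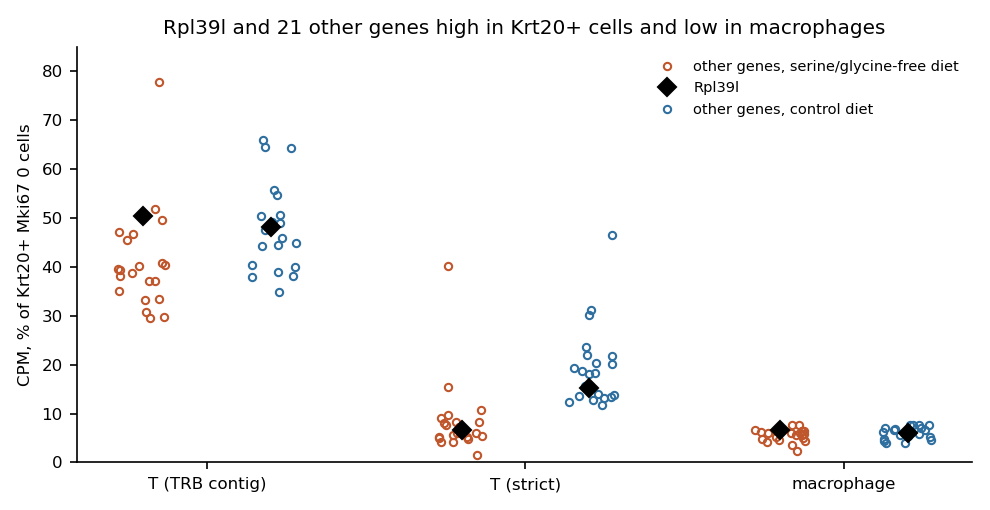
CPM as a percent of the level in Krt20+ cells without Mki67 (y axis) for Rpl39l (black diamonds) and 21 other genes (open circles) in the T, strict T and macrophage gates, serine/glycine-free diet left of control diet. The choice of the circles limits them to 10% in macrophages; Rpl39l is at 50.5% and 48.2% in the T gate and at 6.59% and 15.2% in the strict T gate.

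Rps27l, a paralogue of Rps27 known as a p53 target, split differently, with its share of the pair low in T cells and high in macrophages. Its own CPM in macrophages was not above that of Krt20+ cells without Mki67. Its share of the pair was 8.22% (7.29 to 9.23) and 8.16% (6.94 to 9.51) in strict T barcodes of the serine/glycine-free and control libraries. It was 25.3% (24.4 to 26.1) and 28.5% (27.6 to 29.4) in macrophages and 17.1% (16.9 to 17.3) and 21.6% (21.4 to 21.9) in Krt20+ cells without Mki67. In CPM, Rps27l had 197 and 201 in strict T barcodes, 366 and 374 in macrophages and 381 and 459 in Krt20+ cells without Mki67. Rps27 ran the other way between T cells and macrophages, with 2201 and 2260 CPM in strict T barcodes, 1083 and 939 CPM in macrophages and 1842 and 1666 CPM in Krt20+ cells. Rps27l was the 1 member called lower in strict T barcodes than in macrophages, at ratios of 0.539 (0.473 to 0.612) and 0.536 (0.452 to 0.633). At 1000 UMIs per cell it was seen in 15.8% and 16% of strict T barcodes, in 29.3% and 28.3% of macrophages and in 30.5% and 35.9% of Krt20+ cells without Mki67. Unthinned these shares were 58.3% and 41.7%, 86.9% and 87.3%, and 96.5% and 97.8%.

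Rpl22l1 and Rpl22 are paralogues known in mice to compensate for each other, and Rpl22 is needed for normal alpha-beta T cell development. Rpl22l1 supplied about as many UMIs as Rpl22 in Krt20+ cells, 49.2% and 52.6% of the pair with Mki67 and 45.1% and 50.9% without. Its share was 30.0% (28.5 to 31.6) and 37.7% (35.4 to 40.1) in strict T barcodes, and 30.0% (29.2 to 30.9) and 34.4% (33.6 to 35.3) in macrophages. These intervals overlapped in the serine/glycine-free library and not in the control library. Among strict T barcodes of the control library, those with Cd8a or Cd8b1 and no Cd4 had 35.1% (31.2 to 39.1), overlapping macrophages. Those with Cd4 and neither Cd8a nor Cd8b1 had 45.0% (40.9 to 49.2). In the serine/glycine-free library the same groups had 30.4% (28.7 to 32.1) and 28.3% (23.3 to 33.7). Strict T barcodes had 1864 and 1440 CPM of Rpl22 and macrophages 1103 and 1036 CPM, while Rpl22l1 had 800 and 873 CPM in strict T barcodes and 473 and 545 CPM in macrophages. Krt20+ cells without Mki67 had 1106 and 1358 CPM of Rpl22l1.

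Rpl36al, a second copy of Rpl36a, and Rpl7l1 had their largest shares in macrophages. Rpl36al supplied 46.0% (45.2 to 46.8) and 47.0% (46.2 to 47.8) of its pair in macrophages, 35.8% and 37.2% in strict T barcodes and 30.6% and 31.9% in Krt20+ cells without Mki67. Its own CPM hardly differed, at 934 and 925 in macrophages, 965 and 1001 in strict T barcodes and 1031 and 1097 in Krt20+ cells, so the shares followed Rpl36a, with 1097 and 1042, 1732 and 1689, and 2337 and 2347 CPM in the same order. Rpl7l1 supplied 7.35% (6.75 to 7.98) and 9.04% (8.40 to 9.70) of its pair in macrophages, 2.87% and 3.78% in strict T barcodes and 2.36% and 2.76% in Krt20+ cells without Mki67. For both genes the macrophage intervals did not overlap those of the strict T and Krt20+ gates of the same library. Rps27rt, under the filter, held between 1.35% and 2.09% of its UMIs with Rps27 in every main gate and in the strict T gate.

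**Figure D4:**
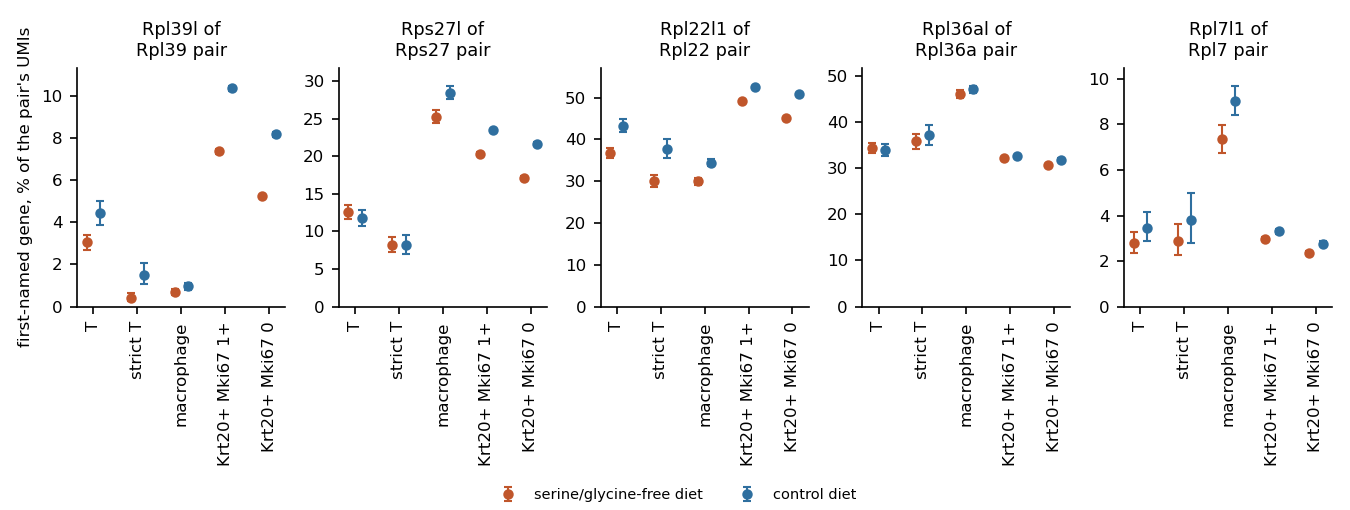
The first-named paralogue as a percent of the pair's UMIs (y axes differ in range and start at 0) by gate and diet, with exact 95% binomial intervals as bars. Rpl39l is highest in the Krt20+ gates (5.23% to 10.4%), Rps27l lowest in strict T (8.22% and 8.16%), and Rpl36al and Rpl7l1 highest in macrophages.

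Smaller gates were described in the same way. CD8 barcodes had Cd8a or Cd8b1 and no Cd4, and CD4 barcodes the reverse. NK cells had Ncr1, and neutrophils at least 5 counts each of S100a8 and S100a9, both without Krt20 or a TCR contig. Fibroblasts had Pdgfra and neither Ptprc nor Krt20. That gate does not exclude cells of the Krt20+ kind in which Krt20 went uncounted, and their part was not tested. CD8 T barcodes of the strict gate, 130 and 49 cells, had Rps27l shares of 8.93% and 10.5% and Rpl39l shares of 0.331% and 0.954%. CD4 T barcodes, 24 and 40 cells, had Rps27l shares of 4.83% (2.79 to 7.73) and 7.53% (5.48 to 10.0), and their intervals overlapped those of CD8 cells in the control library only. Their Rpl39l shares were 1.69% (0.623 to 3.64) and 3.52% (2.33 to 5.07), and in the control library they held 27 of the 35 strict T UMIs of that gene. NK cells, 127 and 15, had Rps27l shares of 10.1% and 15.3% and Rpl22l1 shares of 32.7% and 42.5%. Fibroblasts, 275 and 418, had Rpl39l at 158 and 201 CPM from 611 and 1281 UMIs. Their Rpl39l shares of 4.04% and 5.86% lay between macrophages and Krt20+ cells without Mki67. Rps27l shares in fibroblasts were 13.1% and 18.5%, and Rpl22l1 shares 42.9% and 47.1%. The ribosomal share of UMIs was 22.6% and 20.5% in NK cells and 24.0% and 23.0% in fibroblasts. In neutrophils, 47 and 34 cells with a median of 1051 and 836 UMIs, the median cell had 2.0% and 2.12%, while the summed UMIs gave 12.3% and 16.3%. Their Rpl39l shares of 2.64% and 7.35% rest on 6 and 10 UMIs. Rps27l shares in neutrophils, 8.78% and 17.3%, rest on 13 and 19 UMIs of that gene. The Rpl22l1 shares there, 32% and 48.8%, rest on 16 and 63 UMIs. The upper quartile over neutrophils was 3.10% and 2.78%, far below the sums, which weigh cells by their UMIs.

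Members and other genes most like Rpl22l1 were found by Pearson correlation of log2(CPM + 5) over the 8 sums of 4 main gates and 2 libraries, which share libraries and, for the T gate, Krt20+ barcodes. Rpl22l1 was closest to Rpl14 (r = 0.998), Rpl4 (0.996) and Rpl15 (0.995), all of the large subunit, and outside the list to Ppic (0.996), Eif1ax (0.996) and Qrfp (0.995).

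Other genes of translation were compared between macrophages and Krt20+ cells without Mki67, where 22.2% of all genes tested were called lower and 28.1% higher. A list of 8 genes held Eef1a1, Eef1b2, Eef1d, Eef1g, Eef2 and Eif5a, which act in elongation, and also Tpt1, which binds an elongation factor, and Pabpc1, a poly(A)-binding protein. Of these, 6 were called lower in macrophages, Tpt1 and Pabpc1 among them, and 0 higher, with medians of -1.01 and -1.02 on the log2 scale. Eef1a1, which delivers aminoacyl-tRNA to the ribosome, had 5210 and 5480 CPM in macrophages against 10298 and 11155 CPM. Of 22 measured genes of ribosome assembly and the nucleolus, 12 were called lower and 0 higher. Npm1, a nucleolar chaperone, had 783 and 819 CPM in macrophages against 1750 and 1771 CPM. Of 18 initiation genes, 5 were called lower and 0 higher, with medians of -0.27 and -0.23. Of 55 measured mitochondrial ribosomal protein genes, 4 were called lower and 0 higher, and their medians were 0.11 and 0.07.

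Between the diets the ribosomal protein genes differed by small amounts. None of the 82 members passed 1.5-fold in the T gate (10.4% of genes tested did), in macrophages (4.43%), in Krt20+ cells with Mki67 (2.13%) or in those without (3.94%). In the strict T gate, 1 member, Rpl39l, was lower under the serine/glycine-free diet (14.2% of genes tested were lower and 20% passed in either direction). The median log2 ratio of the members was 0.04, 0.04, -0.02, 0.02 and -0.01 in the T, strict T, macrophage, Mki67 and Mki67 0 gates, against -0.05, -0.06, -0.10, -0.06 and -0.07 over all genes tested. Counting intervals excluded a ratio of 1 for most members, for example for 46 above and 31 below 1 among the 82 in Krt20+ cells with Mki67. These intervals hold no spread between mice. They were not counted over all genes tested, so the counts show nothing particular to the members.

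Rpl39l was lower in the serine/glycine-free library in the T, strict T, macrophage and Krt20+ gates, but not in NK cells, with 40 UMIs (40.0 CPM) against 3 UMIs (12.5 CPM). Its CPM was 291 against 357 in Krt20+ cells with Mki67 (ratio 0.814, 0.798 to 0.830) and 228 against 311 in those without (0.733, 0.716 to 0.751). In macrophages the ratio was 0.800 with an interval of 0.615 to 1.04 that includes 1. In the strict T gate the ratio of 0.318 (0.174 to 0.567) rests on the 20 and 35 UMIs described above. Rpl22l1 and Rps27l followed in Krt20+ cells without Mki67, with ratios of 0.815 and 0.830. Their shares of the pair were likewise lower in the serine/glycine-free library, at 45.1% against 50.9% and 17.1% against 21.6%.

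Rps28, of the small subunit, was higher in the serine/glycine-free library in the T, strict T, macrophage and Krt20+ gates. In CD4 T cells it had 1568 CPM against 1597 CPM and in neutrophils 1156 CPM against 1217 CPM, both lower. Its ratios were 1.18 in the T gate, 1.19 in the strict T gate, 1.18 in macrophages, 1.21 in Krt20+ cells with Mki67 and 1.2 in those without. Rpl41, the smallest protein of the large subunit, had 2824 CPM under the serine/glycine-free and 2207 CPM under the control diet in Krt20+ cells with Mki67, the highest ratio there at 1.28 (1.27 to 1.29). Rps21 was the highest in macrophages, with 1392 against 1145 CPM. Rplp0 had ratios of 1.21 in both T gates and of 1.21 and 1.17 in the Krt20+ gates, and of 0.961 in macrophages. Rps15a was the highest in the T gates, with ratios of 1.23 by the rule and 1.35 in the strict gate. It lay between 0.980 and 1.01 in the macrophage and Krt20+ gates. Within the strict gate, CD8 barcodes had 6851 against 5122 CPM of Rps15a, and CD4 barcodes 4771 against 4704 CPM. Rplp0 had 7471 against 6222 CPM in CD8 barcodes and 5585 against 5614 CPM in CD4 barcodes. The libraries also differed in make-up, with 130 CD8 and 24 CD4 barcodes against 49 and 40, and the part of this was not tested.

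**Figure D5:**
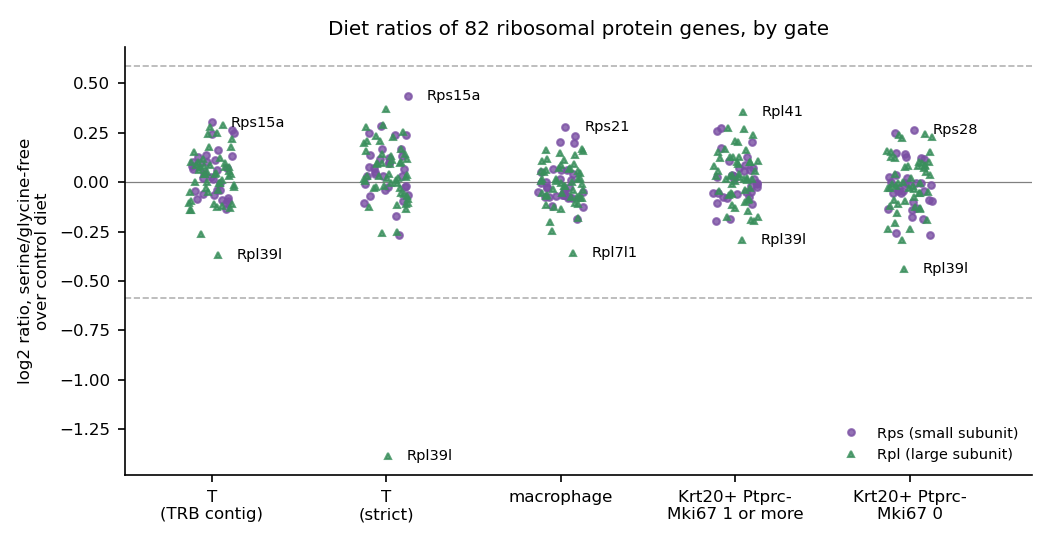
Log2 ratios of CPM, serine/glycine-free over control diet (y axis), for the 82 members in each gate; each point is 1 gene, dashed lines mark 1.5-fold, and the highest and lowest gene of each gate are named. Rpl39l in the strict T gate is the 1 point outside the dashed lines.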

How the data were processed

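Per the labels' protocols, libraries were made with 10x Genomics single-cell immune profiling. The extract protocol speaks of human cardiac septal tissue, although the samples are mouse subcutaneous tumours. Whether that protocol text belongs to these samples is not known. Per the submitters' processing notes, Cell Ranger 2.2.2 and mm10 were used, while the headers of the deposited matrices name Cell Ranger 7.1.0. The deposited files hold raw UMI counts per gene and barcode and contig tables of the TCR library. A barcode was used if it had 300 genes or more and mitochondrial genes made up no more than 20% of its UMIs (7913 serine/glycine-free and 8262 control). Counts were summed per gate and library and divided by all UMIs without TCR and immunoglobulin genes. Ratios used log2(CPM + 5), and 4218 genes reached 50 CPM in a gate. Intervals were exact Poisson, Clopper-Pearson or conditional binomial at 95% (numpy 2.4.6, scipy 1.17.1, pandas 2.3.3). No count model or p-value was used, since each diet had 1 library. Doublets were not called. The calling rule was tried on simulated Poisson counts with known changes, and the outcome is not given here. That simulation held no spread between cells, free RNA or doublets, so it says nothing of their part in the calls. Members and gene lists were chosen with earlier results of these data known. Named genes were the 5 highest and 5 lowest mean log2 ratios of each gate comparison, the 3 highest and 3 lowest of each diet comparison, all paralogues and a fixed set of known roles. Genes with near-identical copies depend on how the authors' counting placed shared reads. Protein sequences were not used here. Some results that meet these rules are not reported here.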

Additional observations from a re-analysis of the deposited data

Results flagged for a closer look

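Symbols marked as pseudogenes lay outside the member rule but carried counts. Rpl9-ps6 had 1106921 UMIs in all kept cells of both libraries together. By gate it had 1653 and 1670 CPM in macrophages of the serine/glycine-free and control libraries and 3696 and 3692 CPM in Krt20+ cells without Mki67. Rpl9 itself had 652 and 702 CPM, and 1447 and 1526 CPM, in the same gates, so both symbols were lower in macrophages. In the rule's T gate Rpl9-ps6 had 3253 and 3265 CPM and Rpl9 had 1124 and 1128 CPM. The level of Rpl9-ps6 in the strict T gate, where Rpl9 was called lower than in Krt20+ cells, is not given here. Rpl10-ps3 had 120948 UMIs, with 315 and 310 CPM in macrophages and 365 and 442 CPM in Krt20+ cells without Mki67. Rpl36a-ps1 had 869 UMIs. Each exceeded the 3 counts that a count of 0 allows, and how reads were divided between these symbols and their parent genes was not tested.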

How the results depend on the processing

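No paired analysis was possible because each diet had 1 library, and for the same reason no replicate could be left out. The strict T gate was chosen after seeing the data. All differences in share kept their sign under every alternative run. The ribosomal share of UMIs, T minus Krt20+ cells without Mki67, was -1.98 percentage points, and became -2.89 with cells that met only 1 gate, -3.43 without the highest 5% of UMIs, -3.65 with every cell weighing the same, -3.31 with cells thinned to 1000 UMIs, -2.09 without mitochondrial genes in the total and -3.35 with the strict T gate. For macrophages it was -12.0, and -12.1, -12.2, -11.7, -11.7 and -12.3 under the first 5 of these. For cells with Mki67 it was -1.62, and -1.69, -1.77, -1.66, -1.65 and -1.67 under the same 5, and -1.56 with Krt20 at least 2. The 58 members lower in macrophages than in Krt20+ cells became 1 on the composition scale, where 5 were higher, and stayed between 54 and 59 otherwise. The 50 members higher in T barcodes than in macrophages became 32 with equal cell weights and 1 on the composition scale. Members lower there, 0 in the original setting, were 1 with exclusive gates, equal weights, thinning or the strict gate, and 3 on the composition scale. Against Krt20+ cells, T barcodes had 1 member higher in place of 0 with exclusive gates, equal weights, thinning and the strict gate. Members lower there, 1 originally, were 3 with exclusive gates and 3 without the deepest cells, 9 with equal weights, 7 with thinning and 5 with the strict gate. Past 1.5-fold between diets, T barcodes had 1 member with exclusive gates, without the deepest cells and in the strict gate, and 2 with thinning; macrophages and Krt20+ cells without Mki67 had 1 each with thinning, in place of 0. The paralogue share in T barcodes minus Krt20+ cells without Mki67 moved under exclusive gates, without the deepest cells, with equal weights, with thinning and with the strict gate, in that order. It was -12.3, -12.9, -16.0, -15.7 and -14.1 percentage points for Rpl22l1 (-7.96 originally), 4.75, 4.75, 6.98, 6.14 and 5.26 for Rpl36al (2.90), -4.94, -4.49, -5.20, -5.59 and -5.74 for Rpl39l (-2.96) and -11.2, -9.37, -12.4, -12.0 and -11.2 for Rps27l (-7.19). With Krt20 at least 2 it was -3.33 for Rpl39l and -7.90 for Rps27l. In macrophages the Rpl22l1 difference of -15.8 became -16.8 with equal weights and -18.6 with thinning, and thinning gave 14.1 for Rpl36al (15.3) and 5.01 for Rpl7l1 (5.63). With Krt20 at least 2, the macrophage difference was -6.24 for Rpl39l (-5.87) and 6.79 for Rps27l (7.50). The cause of these shifts was not tested. Of 215 recomputed values, 146 stayed within 1.5 times the original count or within counting error. The small T gates, with 20 and 35 Rpl39l counts after strict gating, limit what can be said of that gene there.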
